A study of Mus musculus with 47 samples.

Results

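Homozygous mutation of Ccdc82 was compared with wild type in mice that carried no Q140 allele. The 16 libraries were those titled with the genotypes Ccdc82-/- and WT, 8 in each group, out of 47 libraries of striatal RNA in 6 groups. Every library came from dissected striatum of a C57BL mouse aged 6 months, and each of the 2 groups held 4 females and 4 males. The mutant mice carried both Htt copies as wild type. The other 4 groups were Ccdc82+/- (8 mice), Q140 (8), Q140 Ccdc82+/- (8) and Q140 Ccdc82-/- (7). Q140 is an Htt allele with an expanded CAG repeat used as a mouse model of Huntington's disease. All Q140 mice are labelled as heterozygous knock-in. The labels give the genotype and do not say which exons the Ccdc82 mutation removes or disrupts, or which mice were littermates. The comparison asks how striatal mRNA differs with the homozygous Ccdc82 mutation when the disease allele is absent.

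Ccdc82 encodes a coiled-coil domain protein whose molecular role is poorly described. Rare inherited variants in the human gene have been reported in families with intellectual disability and spasticity. The striatum is built mainly of medium spiny neurons (MSN), inhibitory projection neurons that divide into a direct pathway, marked by the dopamine receptor Drd1, and an indirect pathway, marked by Drd2 and the enkephalin precursor Penk. In Huntington's disease these neurons lose much of their characteristic gene expression before they die.

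Ccdc82 was the 1 gene that differed between the groups by the test used. Its mRNA was present in all 8 mutant libraries at 38.03% of the wild type mean. Of 19193 genes tested, 0 passed as higher and 1 as lower in Ccdc82-/- mice (0.00521% of the genes called in either direction; quasi-likelihood test of edgeR, called at a Benjamini-Hochberg adjusted p under 0.05). DESeq2 and voom with sample quality weights also called Ccdc82 and 0 other genes. At an unadjusted p under 0.05 there were 804 genes (4.19%), 317 higher and 487 lower. With no true difference, that threshold would pass a share of about 0.05 of the genes. The smallest adjusted p of any gene but Ccdc82 was 0.9998.

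Ccdc82 (ENSMUSG00000079084) lies on chromosome 9 from 13246955 to 13292520 on the plus strand (GRCm38, GENCODE M21). It had 3.915 CPM (counts per M counts of the library, after scaling) in the lowest, 4.39 in the median and 5.87 in the highest Ccdc82-/- library, against 10.62, 12.27 and 12.88 CPM in wild type. The highest mutant library lay well below the lowest wild type library, so the groups did not overlap and all 16 libraries matched their label. The raw counts behind these levels were 176 to 298 in the mutant and 459 to 635 in wild type libraries. The means were 4.567 CPM ± 0.666 (SD, n = 8) and 12.01 ± 0.773 (n = 8), with an exact two-sided permutation p of 0.000155, the smallest that 8 against 8 libraries can give. The log2 fold change was -1.40 ± 0.07 (SE), with a 95% interval of -1.54 to -1.25 and an adjusted p of 1.32e-20.

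Both sexes kept part of the Ccdc82 mRNA. Mutant females had 4.17 CPM ± 0.306 (SD, n = 4), which was 35.13% of wild type females, and mutant males 4.964 ± 0.721 (n = 4), which was 40.86% of wild type males. Each sex gave an exact permutation p of 0.0286, the smallest that 4 against 4 allows. The log2 fold change was -1.51 ± 0.09 (SE) in females and -1.29 ± 0.09 in males, and the difference between them had an unadjusted p of 0.0985 in edgeR. Counts per gene cannot show which part of the transcript the remaining reads come from, or whether it makes protein.

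**Figure D1:**
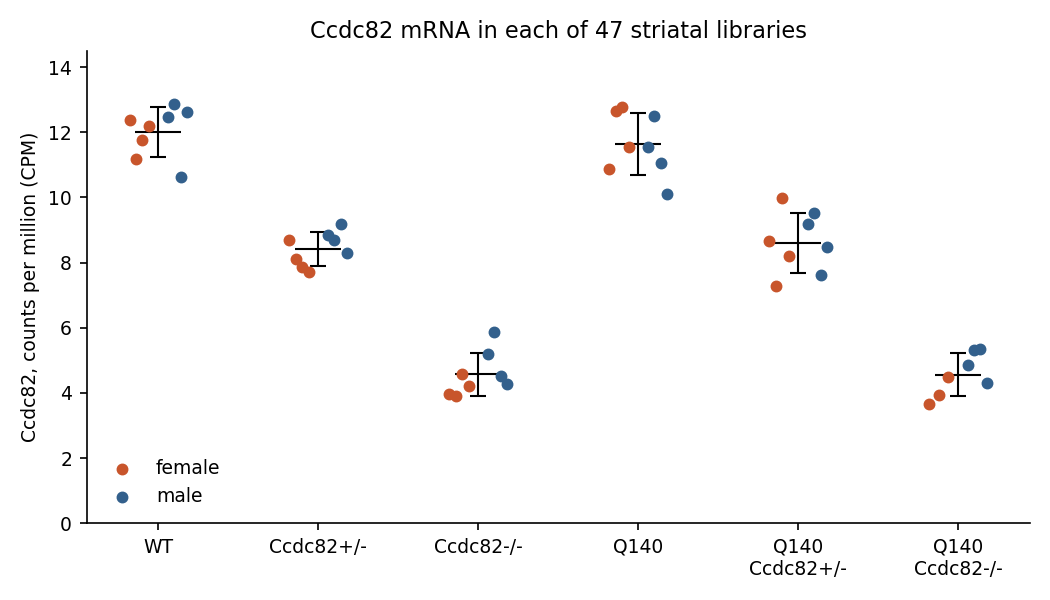
Ccdc82 level in CPM (vertical axis) in each of the 47 libraries, by genotype (horizontal axis) and sex (colour); the horizontal bar and whiskers give the group mean and SD. The 8 Ccdc82-/- libraries sit between 3.915 and 5.87 CPM and the 8 wild type libraries between 10.62 and 12.88 CPM.

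The other genotypes placed the Ccdc82 level beside those of the mutant. Ccdc82+/- mice had 8.42 CPM ± 0.519 (SD, n = 8), a log2 fold change of -0.51 against the same wild type libraries. Q140 Ccdc82-/- mice, which share no library with the comparison here, had 4.56 CPM ± 0.652 (n = 7) against 11.6 ± 0.952 (n = 8) in Q140 mice, a log2 fold change of -1.36 ± 0.07. The 2 mutant groups overlapped, and the difference of the Ccdc82-/- effect between them was 0.04 on the log2 scale (unadjusted p = 0.699 in edgeR).

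For most genes the intervals limited any difference to a small one. The 13937 genes other than Ccdc82 whose mean log2 CPM was 1 or more are called expressed here. Their 95% interval for the log2 fold change had a median half-width of 0.0863, and it lay inside 0.2 in either direction for 11115 of them (79.8%) and inside 0.5 for 13828 (99.2%). Their median absolute log2 fold change was 0.0278, and 94 had an estimate of 0.2 or more in size, 6 of 0.5 or more and 1 of 1 or more. Genes with low counts were less closely bounded: over all 19192 genes other than Ccdc82 the interval lay inside 0.2 for 57.9% and inside 0.5 for 83.4%. Q140 against wild type, with the same 8 wild type libraries, gave 6655 called genes in the same fit (34.7%).

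**Figure D2:**
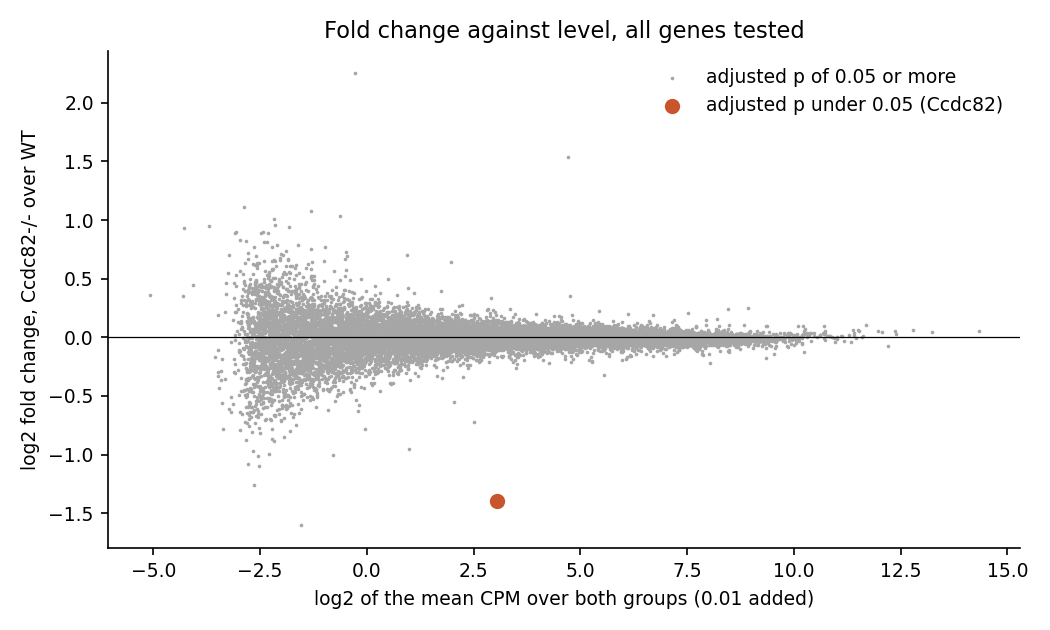
Log2 fold change of Ccdc82-/- over wild type (vertical axis) against the log2 of the mean CPM of both groups (horizontal axis) for the 19193 genes tested. Ccdc82, the large point at -1.40, is the 1 gene past the threshold; the grey points narrow towards 0 as the level rises.

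The genes around Ccdc82 were examined because a targeted allele can disturb its neighbours and carries flanking chromosome with it. Jrkl, a gene of the jerky family of transposase-derived DNA-binding proteins, starts 1125 bases from the start of Ccdc82 and is read in the opposite direction. It had 8.74, 9.29 and 10.4 CPM in the lowest, median and highest Ccdc82-/- library against 8.01, 9.66 and 10.8 in wild type. The groups overlapped fully, and the log2 fold change was -0.025 (95% interval -0.13 to 0.083). Maml2, which encodes a coactivator of Notch signalling and is the tested gene nearest on the other side, had 8.87, 9.46 and 11.1 CPM against 8.35, 9.57 and 10.6. Its log2 fold change was 0.048 (-0.072 to 0.17), also with overlapping groups.

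Within 5 Mb on either side, 45 other genes were tested, 31 of them protein coding, and 0 passed in edgeR. At an unadjusted p under 0.05 there were 2, beside 804 of all 19193 genes tested (4.19%). Those 2 were Vstm5, at -0.14, and Fat3, an atypical cadherin gene, at -0.12, both named after their values were seen. The median over the 45 neighbours was -0.021, beside 0.0018 over all genes tested. Of the 28 neighbours that were expressed, 28 had an interval inside 0.5 and 24 inside 0.2, and their estimates ran from -0.14 to 0.059. Of 3 genes known to differ between C57BL/6 substrains, Nnt stood at 0.00035 (-0.071 to 0.072) and Wdfy1 at -0.013 (-0.11 to 0.088), while Entpd4 was not among the genes tested.

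**Figure D3:**
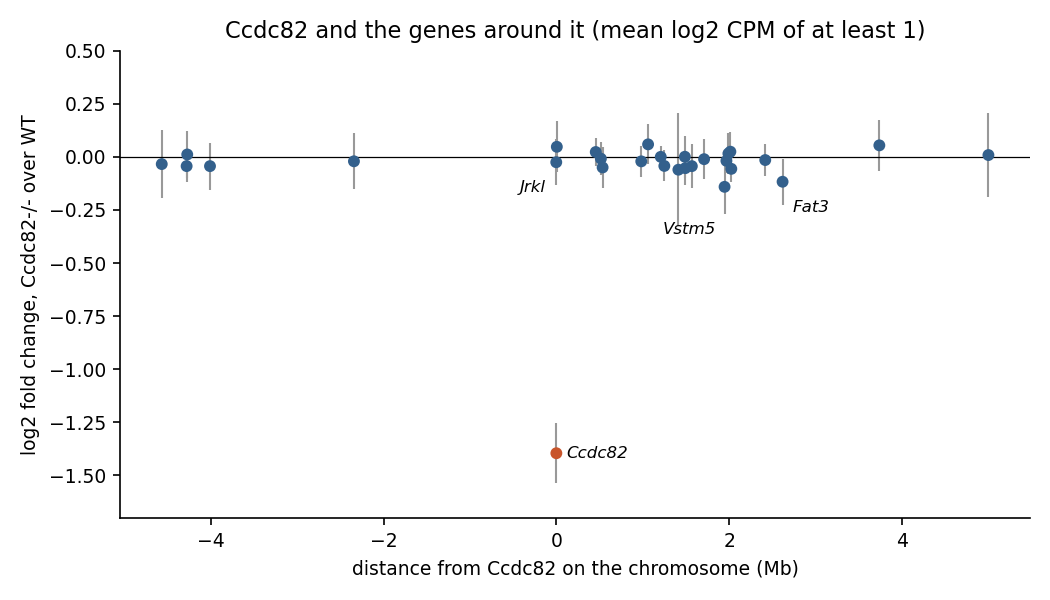
Log2 fold change with its 95% interval (vertical axis) of Ccdc82 and of the 28 expressed genes within 5 Mb, against the distance from Ccdc82 in Mb (horizontal axis). Ccdc82 stands alone at -1.40, and its neighbours lie between -0.14 and 0.059.

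The markers of medium spiny neurons were present at high levels in all 16 libraries, and 0 of them passed in edgeR. Of 30 MSN identity genes 11 were above 0, beside 9868 of all 19193 genes tested, and 0 had an unadjusted p under 0.05. The median log2 fold change of the list was -0.016 and 27 intervals lay inside 0.2. The 3 with the smallest p were the transcription factor gene Foxp1 at -0.053, the calcium sensor gene Hpca at 0.055 and Gad2, which encodes a GABA-synthesizing enzyme, at -0.039. Their summed level was 28320 to 30550 CPM in the mutant libraries and 27660 to 31240 in wild type, with a median of 29440 in each group. In bulk tissue, fewer cells of a type and less RNA per cell cannot be told apart.

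The output pathway markers Drd1, Drd2 and Penk lay near 0. Drd1, chosen for its role and not by the naming rule, as were Drd2 and Penk, had 379.8, 393.6 and 402.8 CPM in the lowest, median and highest mutant library against 366.9, 388.9 and 409.3 in wild type. All mutant values fell inside the wild type range, and the log2 fold change was 0.013 (95% interval -0.053 to 0.079). Drd2 had 223.9, 239.1 and 251.8 CPM against 219.6, 236.9 and 265.6, a log2 fold change of 0.011 (-0.067 to 0.090). Penk stood at -0.0054 (-0.085 to 0.074). In the Q140 against wild type comparison of the same fit, Drd1 stood at -0.57 and Drd2 at -0.55.

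Of 14 direct pathway genes, 10 had an interval inside 0.2 and 12 inside 0.5, and estimates ran from -0.106 to 0.165. Of these 14 genes 0 passed in edgeR and the median was -0.0095. One of them, Isl1, which encodes a LIM-homeodomain factor of this pathway, had an unadjusted p of 0.0106: it had 15.4, 16.9 and 19.2 CPM in mutant libraries against 16.9, 18.1 and 20.3 in wild type, a log2 fold change of -0.11 ± 0.04 (SE). Its groups overlapped, and the value in the Q140 mice was -0.057. Reln and Pdyn, the genes of reelin and prodynorphin, followed at -0.077 and -0.091. Of 9 indirect pathway genes 0 passed and 0 had an unadjusted p under 0.05, with a median of -0.0054 and with Grik3 at -0.034, Gpr6 at 0.049 and Sp9 at 0.039 leading by p. The 15 interneuron genes had a median of 0.015 and 0 calls at either threshold, led by Sst at 0.065, Htr3a at 0.15 and Npy at 0.058.

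Several glial lists had most of their members above 0, by small amounts, with 0 genes past the threshold. Among all 19193 genes tested, 9868 were above 0. All 17 oligodendrocyte genes tested had a log2 fold change above 0, from 0.022 to 0.11, with a median of 0.086, and 1 had an unadjusted p under 0.05. That gene was Mbp, which encodes myelin basic protein: it had 3076, 3525 and 3713 CPM in the lowest, median and highest mutant library against 2778, 3231 and 3413 in wild type. Its groups overlapped, and the log2 fold change was 0.11 ± 0.05 (SE, edgeR adjusted p = 0.9998). Cldn11, the claudin of myelin tight junctions, stood at 0.10.

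The summed level of the oligodendrocyte list was 7177 to 8642 CPM in mutant libraries and 6329 to 7957 in wild type, with medians of 8055 and 7516. Plate column 4 held 4 wild type libraries and 0 mutant ones. With the plate column in the fit the list median was 0.038 with 14 of 17 genes above 0. The list median was 0.0058 for Ccdc82-/- within Q140. Among 11 genes of oligodendrocyte precursors 5 were above 0 and the median was -0.014; Olig1, which is also found in mature oligodendrocytes, stood at 0.10 with an unadjusted p of 0.0431, Cspg4 at -0.057 and Tnr at -0.050.

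Of 20 microglial genes 17 were above 0, with a median of 0.058 and 0 calls in edgeR. Ctss, a cathepsin gene, stood at 0.071 and the complement gene C1qc at 0.064, and in the Q140 mice the median of the list was -0.032. The 19 homeostatic astrocyte genes had a median of 0.029, led by Apoe at 0.067 (unadjusted p = 0.0193), Aldoc at 0.050 and Gpc5 at 0.056, with 18 intervals inside 0.2; the median was 0.014 without wild type female 3 and 0.046 without wild type male 1.

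Of 20 genes of reactive astrocytes 16 passed the filter on low counts and all 16 were above 0, with a median of 0.11, but 4 intervals lay inside 0.2. Steap4, a metalloreductase gene, stood at 0.71 ± 0.27 (SE, unadjusted p = 0.0108) from a median of 0.255 CPM in mutant and 0.2003 CPM in wild type libraries, and S1pr3 and Ggta1 stood at 0.11 and 0.20. Mutant male 4 had the highest summed level of the list, 183.8 CPM, where the other mutant libraries had 133 to 152.8 and wild type 124.3 to 159.7, and without that library the median was 0.051. In females alone 8 of the 16 were above 0 and the median was 0.0057, and in males alone it was 0.20. The part of that library, of sex and of plate column in these small medians was not tested. The 17 endothelial and mural genes had a median of 0.034 and 0 unadjusted calls, with Pecam1 at 0.083, Pdgfrb at 0.077 and Rgs5 at 0.059.

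Lists for tissue that a striatal dissection can carry along had 0 genes past the threshold, and choroid plexus RNA was high in single libraries. Ttr, the transthyretin gene that defines choroid plexus, had 0.835, 5.57 and 280.8 CPM in the lowest, median and highest mutant library against 4.23, 8.15 and 42.2 in wild type. The high value was that of mutant male 1, and the next highest mutant library had 14.53 CPM. Of 11 choroid plexus genes tested all 11 were above 0, beside 9868 of all 19193 genes tested, with a median of 0.70. At an unadjusted p under 0.05 there were 4, beside 804 of all genes tested (4.19%), and 0 were called in edgeR. Kl stood at 0.64, Ttr at 1.53 and F5 at 0.70. Without mutant male 1 the median was -0.21, with Kl at -0.17, Ttr at -0.81 and F5 at -0.16. The summed level was 24.9, 29.8 and 358.6 CPM in the lowest, median and highest mutant library, and 26.2, 35.6 and 75.0 in wild type.

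The 10 ependymal genes had a median of 0.12, led by Mia at 0.28, Fam183b at 0.27 and Rarres2 at 0.13, with 0 intervals inside 0.5; the median was 0.019 without wild type male 2 and 0.27 without wild type female 4. The 5 blood genes had a median of -0.95, with Hba-a2 at -1.60, Hbb-bt at -1.01 and Hba-a1 at -0.95. Their summed level reached 33.8 CPM in wild type male 3, 27.52 CPM in the next wild type library and 13.3 CPM at most in mutant libraries, and the median was -0.62 without that wild type library; it was 0.79 in females alone and -2.77 in males alone. The 12 cortical excitatory neuron genes had a median of -0.10, led by Rorb at 0.090, Tbr1 at -0.45 and Neurod6 at -0.57; without wild type female 4 the median was -0.046, with Tbr1 at -0.19 and Neurod6 at -0.22. The 10 genes of thalamic, pallidal or septal neurons had a median of 0.0079, led by Nkx2-1 at 0.11, Ntng1 at -0.083 and Gbx2 at -0.15. All 4 of these lists had 0 unadjusted calls. The 12 collagen and meningeal genes had a median of 0.058, with Mgp, the matrix Gla protein, at 0.28 (unadjusted p = 0.0105), Col1a1, a fibrillar collagen chain, at -0.26 (unadjusted p = 0.0186) and Ptgds at 0.20.

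**Figure D4:**
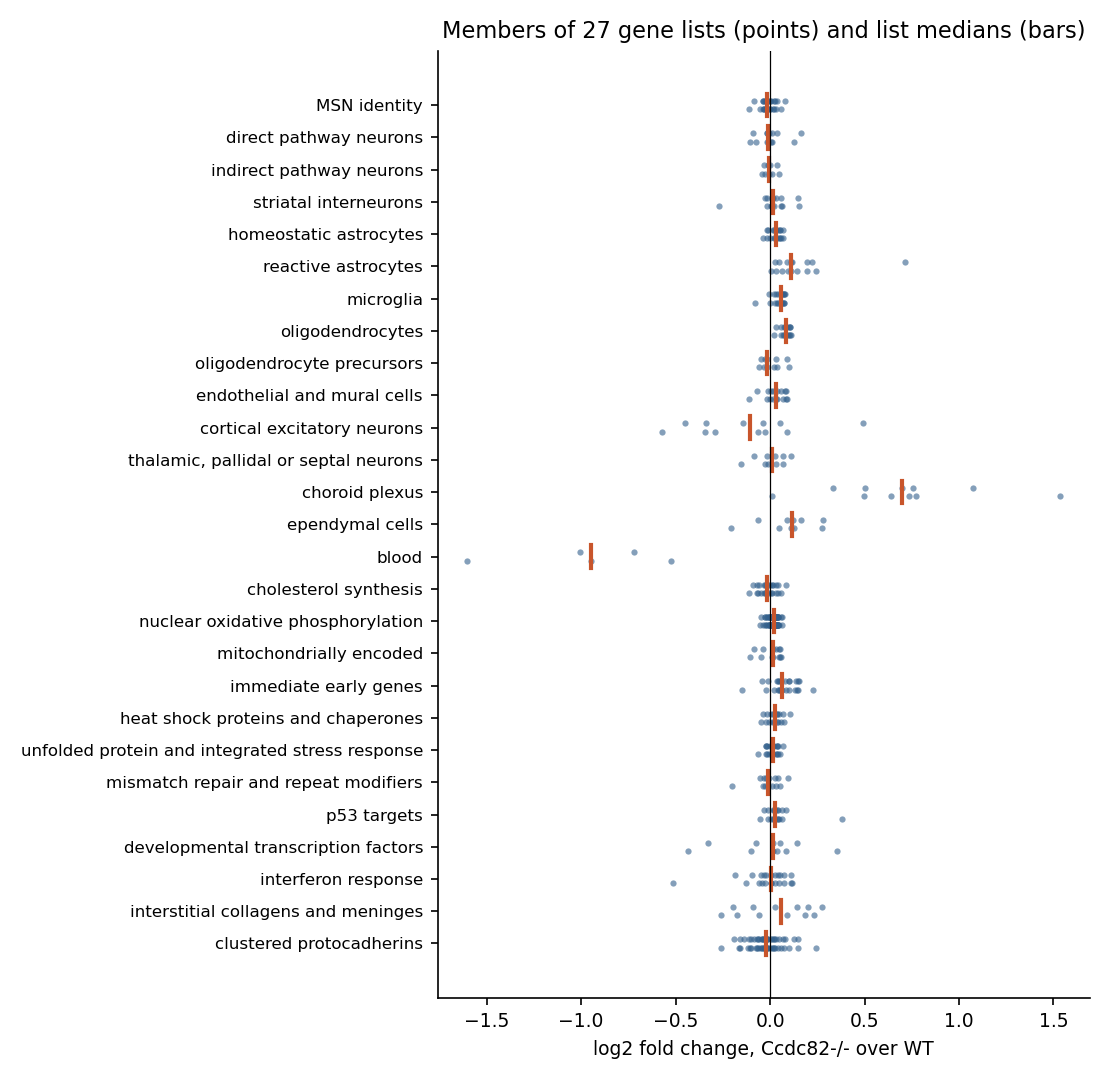
Log2 fold change of Ccdc82-/- over wild type (horizontal axis) for each tested member (points) of 27 gene lists (vertical axis), with the list median as a bar. Most lists lie close to 0; the choroid plexus list at 0.70 and the blood list at -0.95 stand apart, and 0 of the plotted genes passed the test.

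Metabolic, stress and activity genes showed 0 calls in edgeR. The 26 genes of cholesterol synthesis had a median of -0.017 and 23 intervals inside 0.2, with Fdps at -0.11, Ebp at 0.083 and Sqle at -0.070. Of 76 nuclear oxidative phosphorylation genes 59 were above 0, but the median was 0.021 and 74 intervals lay inside 0.2; Ndufb11 (0.063, unadjusted p = 0.0468), Atp5b (0.040) and Uqcrc1 (0.042) led the list. Their summed level was 7418 CPM in mutant female 2 and 6798 to 6924 CPM in the other 7 mutant libraries, and without mutant female 2 the median was 0.0060. The 13 mitochondrially encoded genes had a median of 0.014, with mt-Co1 at 0.050 (unadjusted p = 0.0443), mt-Nd1 at 0.059 and mt-Cytb at 0.048.

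The 25 immediate early genes, a class induced by neuronal firing, had a median of 0.062, and 1 interval lay inside 0.2 while 17 lay inside 0.5, so these genes were loosely bounded. The median was 0.031 without wild type male 3 and 0.11 without mutant female 1, whose summed level of the list was the lowest of the mutant libraries at 1770 CPM. Gadd45b, Dusp1 and Junb led them at 0.10, 0.13 and 0.15. The 18 heat shock and chaperone genes had a median of 0.028 (Dnajb2 at 0.042, Cryab at 0.11, Hsp90aa1 at 0.046). The 20 genes of the unfolded protein and integrated stress response had a median of 0.015 (Asns at 0.038, Atf4 at 0.039, Ppp1r15a at 0.068). The 23 interferon response genes had a median of 0.0064 (Stat2 at -0.060, Ifih1 at 0.12, Ifitm3 at 0.11). None of the members of these 4 lists had an unadjusted p under 0.05.

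Genes tied to the CAG repeat and to genome maintenance were also examined, since the mutation was crossed to a Huntington's disease allele. Htt had 195.2, 210.6 and 221.5 CPM in the lowest, median and highest mutant library against 206.8, 216.1 and 229.8 in wild type, with overlapping groups and a log2 fold change of -0.051 (95% interval -0.11 to 0.0066). The 14 genes of mismatch repair and repeat modification had a median of -0.0086, 0 calls at either threshold and 12 intervals inside 0.2. Msh3, a mismatch repair gene that drives somatic expansion of the repeat, stood at -0.022 (-0.10 to 0.059), and Lig1, Pold1 and Pcna led the list at 0.095, -0.054 and 0.055. Htt and Msh3 were chosen for their role. The 19 p53 target genes had a median of 0.027, with Eda2r at 0.38 (unadjusted p = 0.0388), Ccng1 at 0.041 and Bax at 0.035. Of 32 developmental transcription factor genes 11 passed the filter on low counts, with a median of 0.018, and Tbx15, Onecut2 and Nkx2-2 stood at -0.33, -0.10 and 0.084.

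Clustered protocadherins, adhesion molecules encoded in gene arrays, held the protein-coding gene with the smallest p after Ccdc82. Pcdhb19 had 13.7, 16.4 and 18.3 CPM in the lowest, median and highest mutant library against 17.5, 18.7 and 20.6 in wild type. The groups overlapped at their edges, and the log2 fold change was -0.19 ± 0.05 (SE, unadjusted p = 0.00039, edgeR adjusted p = 0.9998). Pcdhb16 stood at -0.16 (unadjusted p = 0.000809) and Pcdhb17 at -0.086. In the Q140 mice the 3 genes stood at 0.030, -0.059 and 0.030. Of 57 protocadherin genes tested 5 were lower and 0 higher at an unadjusted p under 0.05, beside 487 lower and 317 higher of all 19193 genes, and 0 were called in edgeR; the median was -0.024. Members of the arrays are close in sequence, and how reads shared between them were counted is not given in the sources used here.

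Genes that respond to the Q140 allele were taken from the comparison of Q140 Ccdc82+/- with Ccdc82+/- mice, which shares no library with the comparison here. Both lists hold only genes called there in edgeR at an adjusted p under 0.05. The 445 called genes that were higher there by at least 0.5 on the log2 scale had a median of -0.024 in Ccdc82-/- against wild type, with 183 above 0. The 572 called genes that were lower there by at least 0.5 had a median of 0.0058, with 304 above 0. Of all 19193 genes tested, 9868 were above 0. In edgeR 0 genes of either list were called, with 6 higher and 14 lower in the first and 4 and 10 in the second at an unadjusted p under 0.05. The same threshold held for 804 of all genes tested (4.19%).

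Of all 19193 genes tested, 3 had groups of 8 and 8 without overlap in CPM (0.0156%), beside a probability of 0.000155 under random labels. Beside Ccdc82 these were Gm17108, a noncoding gene on chromosome 13, and Gm25821, a small nucleolar RNA gene, both named after their values were seen and both at under 1 CPM. Gm17108 stood at -1.01 and Gm25821 at -0.49, while in the Q140 mice they stood at 0.16 and 0.24. The largest estimate of any gene was that of Capn11, a calpain gene, at 2.25 ± 0.88 (SE, unadjusted p = 0.0147), with 0.0459, 0.739 and 3.79 CPM in the lowest, median and highest mutant library against 0.101, 0.154 and 1.099 in wild type. Its groups overlapped, and it stood at -0.096 in the Q140 mice. Capn11 too was chosen after its values were seen.

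The Ccdc82-/- effect was read again in the 15 Q140 and Q140 Ccdc82-/- libraries, none of which is among the 16. Ccdc82 was again the 1 gene called, lower, with 0 genes higher (0.00521%), and 712 genes had an unadjusted p under 0.05 (3.71%). The next smallest adjusted p there was 0.364, that of Pdk3, a pyruvate dehydrogenase kinase gene, at -0.13. Of the 803 other genes with an unadjusted p under 0.05 in mice without Q140, 369 (46%) had the same sign in the Q140 mice, beside 48.5% of all other genes tested. Of those 803, 6 had the same sign and an unadjusted p under 0.05 in both, and 21 had such a p with the opposite sign. The difference of the effect between Q140 and Htt wild type mice was called for 0 of 19193 genes in edgeR (0%), with 826 at an unadjusted p under 0.05 (4.3%) and a smallest adjusted p of 0.9979.

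The 2 sexes were compared in a fit with 1 coefficient per genotype and sex. In each sex 1 gene was called. The difference of the effect between sexes was called for 0 of 19714 genes in edgeR (0%), with 925 at an unadjusted p under 0.05 (4.69%) and a smallest adjusted p of 0.962.

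Total counts were 42.4 to 51.5 M in the mutant and 41.3 to 50.1 M in the wild type libraries. The genes below an unadjusted p of 0.05 were uneven in transcript length. Among the 2788 expressed genes with the longest gene models (7140 bases or more in the lengths behind the FPKM values), 175 were lower and 15 higher. Among the 2788 with the shortest (2160 bases or fewer), 27 were lower and 77 higher; Tnrc6b, a long-transcript gene of microRNA silencing chosen after its values were seen, stood at -0.14. The median log2 fold changes of these sets were -0.016 and 0.017. In Ccdc82+/- against the same wild type libraries they were -0.012 and 0.0096. For Ccdc82-/- within Q140 they were -0.0061 and 0.0025. Mutant female 2 stood apart: its long genes lay 0.127 below its short genes on the log2 scale of deviations from each gene's mean, where the other mutant libraries ran from -0.0155 to 0.0225 and wild type from -0.0252 to 0.0489. Without mutant female 2 the longest set held 83 lower and 14 higher genes, with a median of -0.0076, and the shortest set 32 lower and 54 higher, with a median of 0.0075. By group, the median of long minus short genes was 0.0212 in wild type and -0.00412 to 0.0141 in the other groups. The part of mutant female 2, and of the shared wild type libraries, in the lean was not tested beyond this.

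**Figure D5:**
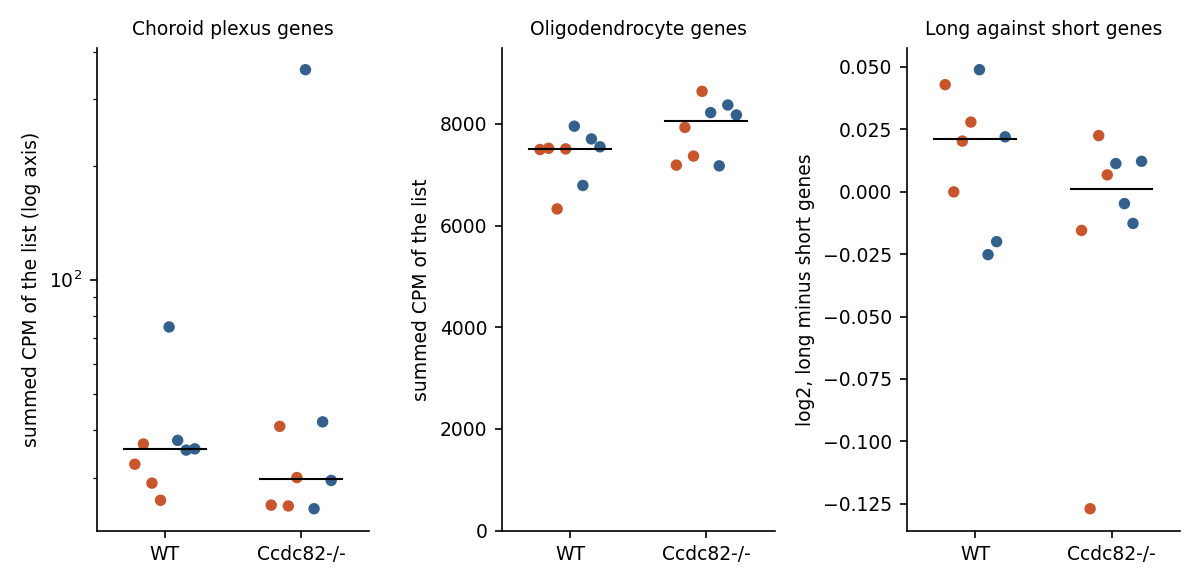
Values of the 16 libraries by group (horizontal axis; orange for females, blue for males, bar for the median): summed CPM of choroid plexus genes on a log axis, summed CPM of oligodendrocyte genes, and the mean log2 deviation of long minus short genes. Mutant male 1 reaches 358.6 CPM in the first panel, and mutant female 2 lies at -0.127 in the last.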

How the data were processed

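Striatal RNA of 47 mice was sequenced by the authors from stranded TruSeq libraries, per the labels' protocols. The deposited table of counts holds whole-number read counts of 48795 genes. The deposited FPKM values equal these counts divided by 1 length per gene and by the column total. STAR 2.7.5c, SAMtools 1.10 and HTSeq 0.12.3 are named with GRCm38 in the submitters' processing notes; their settings are not given in the sources used here.

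Groups, sex and plate wells came from the labels. In R 4.3.3 with edgeR 4.0.16, filterByExpr left 19193 genes, libraries were scaled by TMM, and a robust quasi-likelihood model of group and sex was fitted to all 47 libraries. Each SE was derived from the log2 fold change and the F statistic of its test, and intervals of 95% use the t distribution. P-values were adjusted by Benjamini-Hochberg over all genes. They set a difference against the spread between samples, which edgeR estimated from all 47 libraries. The code was tested on simulated data. Alternatives used limma 3.58.1 and DESeq2 1.42.0. Positions came from GENCODE M21, which held 48349 of the 48795 gene identifiers in the table of counts. FPKM entered with 0.1 added before the log2 and a filter of 0.1 in 7 libraries.

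The comparison and the 27 gene lists were chosen with earlier results of these data known. Genes were named by a rule: Ccdc82, called genes, the nearest tested neighbours, the 3 members of each list with the smallest p, and 3 substrain genes. Some genes this rule picked are left out here. Others are marked as chosen for their role or after their values were seen.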

Additional observations from a re-analysis of the deposited data

Results flagged for a closer look

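In 11 of 110 sets of 7 or 8 libraries tested, 1 library lay farther from the others than Dixon's 95% limit; chance flags about 1 set in 20. Choroid plexus RNA stood high in mutant male 1, at 358.6 CPM summed over the list and 280.8 CPM for Ttr, and in wild type male 1, at 75.03 and 42.19 CPM. Capn11 stood at 1.099 CPM in wild type female 4, where the other wild type libraries had 0.1014 to 0.291 CPM. Mutant female 2 stood apart in the long minus short genes, at -0.127 on the log2 scale, and in the summed nuclear oxidative phosphorylation genes, at 7418 CPM. Mutant male 2 stood low in homeostatic astrocyte genes, at 9185 CPM where the other mutant libraries had 9525 to 9808, and in endothelial and mural genes, at 560.2 CPM where they had 589.8 to 610.4. Mutant male 4 stood high in reactive astrocyte genes, at 183.8 CPM. Wild type female 2 had 6.016% of its counts on mitochondrially encoded genes, where the other wild type libraries had 5.57 to 5.737%.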

How the results depend on the processing

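The calls did not depend on any alternative tried. Under 12 other settings and 16 fits that each left out 1 library, Ccdc82 was called lower and 0 other genes were called; the smallest adjusted p of another gene in any of them was 0.211, with the first number of the sample name as a factor. The log2 fold change of Ccdc82 ran from -1.51 in females alone to -1.29 in males alone (adjusted p = 0.000182), and from -1.45 to -1.37 without 1 library. Its level ran from 36.48 to 38.8% of wild type without 1 library and was 38% in FPKM. The Q140 and sex comparisons kept their counts of 1, 0 and 0 under the alternatives run for them. With the replicate number as a block, 0 genes were higher and 1 lower, with Ccdc82 at -1.40. Correlations of same-numbered libraries ran from -0.121 to 0.364, and they cannot show whether the numbers pair the mice. Of 2378 values of the other named genes, 2280 lay within 1 SE of the value reported, and at most 9 of 85 signs differed in a setting. Genes other than Ccdc82 at an unadjusted p under 0.05, 803 as reported, numbered 500 with the plate column as a factor, 1512 with no filter on low counts, 1954 with the first number of the sample name as a factor, 590 without mutant female 2 and 1184 without mutant female 1. Of 27 list medians, 0 changed sign with RLE size factors, 2 with FPKM (the interferon and thalamic lists), 4 in males alone and 11 in females alone, among these the choroid plexus, blood and immediate early gene lists. Each sample number holds 1 sex, so that factor replaced the sex term. Intervals were wider when genes with low counts were included, with a median half-width of 0.117 over all genes and 0.0863 over expressed genes.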
